A study of Mus musculus with 2 samples.

Results

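Antisense loci are places where the transcript caller TALON placed long reads on the strand opposite an annotated gene, in a model that it labelled Antisense. The loci of both libraries were merged where their extents overlapped on the same strand, which gave 11444 loci, and loci were chosen by their reads, with a minimum of 5 in both libraries. This left 319 of 11444 loci, of which 317 lie on mouse chromosomes and 2 on spike-in RNAs. The read counts chose the loci, so their levels are a description and carry no test. Each locus is named here for its partner, the annotated gene of the other strand with the most exon bases under the locus, followed by "-as".

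The tissue was adrenal gland of male B6CASTF1/J mice, F1 hybrids that carry a B6 and a CAST genome, aged 2 months and with no treatment in the labels. Both libraries form 1 group, so no contrast between groups exists. The biosample labels give the libraries different animal numbers, whereas the library descriptions give both the same number and the donor identifier is shared, so the spread between them may be technical. Cortex and medulla markers were both present, with Star at 13341 ± 1883 CPM and Th at 3206 ± 29.2 CPM (gene-assigned reads scaled to the library total, mean ± SD, n = 2). Of the kidney markers, Umod and Slc12a1 had 0 reads and Aqp2 had 6 in each library, and of the liver markers Ttr had 0 and Alb and Apoa1 had 1 read, in replicate 2.

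Antisense RNAs are made from the strand opposite a gene. They can start at a promoter that fires in both directions, at a start of their own inside the gene, or in a neighbouring gene whose transcript runs on into it. Some pair with or silence the sense RNA, and for many no role is known. A cDNA molecule keeps its strand through the splice sites of its introns and through the poly(A) tail, and a single-exon read has only the tail. The adrenal cortex makes steroid hormones under control of the ACTH receptor Mc2r, and the medulla makes catecholamines.

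The sequence that followed the 3′ end was a recurrent feature of the loci, so windows of 30 bases are shown for 6 loci that end before a run of A and for 2 that do not. Each window is read 5′ to 3′ on the strand of the antisense locus, holds the last 10 bases of the lead model (the model with the most reads) in replicate 1 and the 20 bases after it, and comes from GENCODE M21 transcripts of the other strand (build mm10). Capitals mark the longest run of at least 6 A after the end.
Actb-as, chr5:142903645-142903674 (+): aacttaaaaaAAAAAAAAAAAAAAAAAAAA
Tacc1-as, chr8:25158024-25158053 (+): agattaaggcAAAAAAAAAAAAAAAAAAAA
2900097C17Rik-as, chr2:156391505-156391534 (+): cacaaaatgtAAAAAAAAAAAAAAAAAAAA
Neat1-as, chr19:5841874-5841903 (+): gtcatgtaccAAAAAAAAAAAAAAAAAAcc
Fdx1-as1, chr9:51945836-51945865 (+): gatgatgggtgAAAAAAAAAAAAAAAAAAA
Map3k1-as, chr13:111748412-111748441 (+): agccagtgacAAAAAAAccaaaaaaaccaa
Kcnk3-as, chr5:30623608-30623637 (-): ggaagccacagtttctgcacacactctgct
Gnb1-as, chr4:155557942-155557971 (-): caaagtcttgctacaaatgacttatattta
The first 3 windows are A in all 20 bases after the end, and the last 2 hold no run of 6.

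The antisense loci drew a small and similar share of each library. Antisense reads on chromosomes were 20122 of 824186 gene-assigned reads in replicate 1 (2.44%) and 15627 of 656786 in replicate 2 (2.38%). The 317 loci took 8692 of these antisense reads (43.2%) and 5978 (38.3%). The other 11124 loci were thinly read, and 8775 of all chromosomal loci had reads in only 1 library. Counted in each library on its own, 585 loci reached 5 reads in replicate 1 and 474 in replicate 2, and the 317 were 54.2% and 66.9% of those. A locus at 5 reads stood at 6.07 CPM in replicate 1 and 7.61 CPM in replicate 2, and a count of 0 allowed up to 3 reads, or 3.64 and 4.57 CPM.

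Loci near the threshold had few reads. Qk-as2 and Ywhaz-as2 lay just inside it with 5 reads in each library. A locus opposite Kdsr (18 and 4 reads in replicates 1 and 2) and one opposite Meis2 (4 and 17 reads) lay just outside. In all, 70 of the 317 loci had exactly 5 reads in their lower library, and 104 loci below the threshold had exactly 4.

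An annotated gene lay opposite 316 of the 317 loci. These were 305 distinct partners, and 11 of them held 2 loci each. The partners were protein-coding for 293 loci (92.7%) and lincRNA genes for 11. TALON named the same partner for 306 loci. The exception, at chr13:55184769-55188738 (-) with 7 and 9 reads, faced an unannotated new gene. Moreover, 12 loci also overlapped an annotated gene on their own strand, among them B2m-as, Ube3a-as, Braf-as and Khsrp-as, and reads of locus and gene cannot be told apart there by strand.

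Most of the loci lay inside the partner, and they covered its 3′ UTR more often than thinly read loci did. Of the 317 loci, 230 (72.6%) lay in the body of the partner, 50 (15.8%) covered its 3′ end, 30 (9.46%) its 5′ end and 6 (1.89%) both ends. Among the 11124 loci below the threshold, 87.0% lay in the body, 4.68% covered the 3′ end and 6.86% the 5′ end. By the feature under most of their bases, 139 of the 317 (43.8%) lay over a 3′ UTR and 115 (36.3%) over an intron, whereas 13.1% of the loci below lay over a 3′ UTR and 70.3% over an intron. Over coding sequence lay 5 of the loci, over a 5′ UTR 10, over a noncoding exon 25, and 23 lay mainly outside the partner. Of the 50 loci at the 3′ end, 36 were mainly over the 3′ UTR. The extent of a locus joins all its models, and by the lead model of replicate 1 alone 10.1% covered the 3′ end and 79.5% lay in the body.

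**Figure D1:**
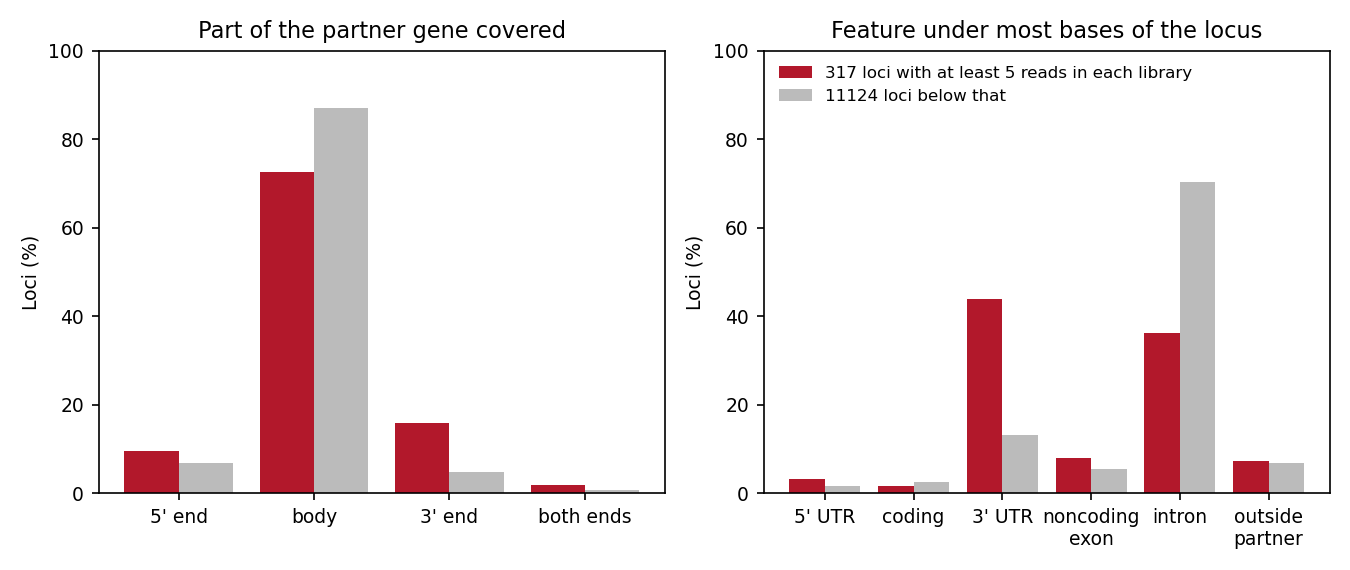
Share of antisense loci (y axis, percent) by the part of the partner gene they cover (left) and by the feature under most of their bases (right), for the 317 loci with at least 5 reads in each library (red) and the 11124 loci below that (grey). The red bar is the higher one over the 3′ end (15.8% against 4.68%) and over the 3′ UTR (43.8% against 13.1%), and the lower one over introns (36.3% against 70.3%).

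Loci opposite Actb, Tacc1, Ywhaz and 2 noncoding partners were among the most abundant at the 3′ end, beside CT010467.1-as, described further on. Actb-as (chr5:142901895-142903654, +) had 627 reads in replicate 1 and 264 in replicate 2, against 1037 and 907 reads of Actb (ENSMUSG00000029580.14), which encodes cytoplasmic beta-actin. Its lead models ended at the same base in both libraries, inside the gene, and started 1339 bases apart. The antisense share, which is the antisense reads over the sum of antisense and partner reads, was 37.7% (Wilson 95% interval 35.4 to 40.0) in replicate 1 and 22.5% (20.2 to 25.03) in replicate 2. The intervals do not overlap, so these libraries differ beyond counting error. Reads of Actb and Ywhaz can be shared with near-identical pseudogene copies, so their counts are uncertain.

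Tacc1-as (chr8:25154552-25158033, +) had 166 and 105 reads and faced the 3′ UTR of Tacc1 (ENSMUSG00000065954.11), a gene for a coiled-coil protein of the centrosome, which had 28 and 31 reads. The lead model of 3482 bases had the same start and end in both libraries. Its antisense share was 85.6% (79.9 to 89.8) and 77.2% (69.5 to 83.5), so the antisense reads outnumbered the gene's own. Ywhaz-as1 (147 and 84 reads) faced Ywhaz, which encodes a 14-3-3 adaptor protein, and held 51.9% and 40.2% of the reads. Opposite noncoding partners, Tmem250-ps-as had 206 and 105 reads (83.4% and 84.0% antisense) and 2900097C17Rik-as had 138 and 78 reads (80.2% and 70.3%).

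Within the body of the partner, loci opposite Kcnk3, Malat1, Gnb1 and Ptp4a2 were among the most abundant. Kcnk3-as (chr5:30621896-30624017, -) had 254 and 129 reads over the 3′ UTR of Kcnk3, a background potassium channel of the adrenal cortex, which had 2554 and 2492 reads. Its antisense share was 9.05% (8.04 to 10.2) and 4.92% (4.16 to 5.82). The antisense reads were thus a small part of the reads at a partner of 3447 ± 492 CPM. Gnb1-as (183 and 81 reads) held 50.8% and 34.3% opposite Gnb1, a G protein beta subunit, and Ptp4a2-as (147 and 80 reads) held 45.5% and 33.9% opposite a tyrosine phosphatase gene. Malat1-as (146 and 117 reads) held 71.9% and 67.6% opposite Malat1, an abundant nuclear lincRNA.

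Loci at the 5′ end had lower counts. Apart from Gm26917-as, described next, the highest were Crebbp-as (41 and 37 reads), AC161438.1-as (34 and 42), Foxc1-as (29 and 19) and Gdap10-as (9 and 31). Foxc1 encodes a forkhead transcription factor, and its antisense share was 76.3% and 63.3%. Of the 36 loci that covered the 5′ end or both ends, 16 had a lead model that started 1 to 1000 bases inside the partner in replicate 1, and 11 did so in both libraries. Such models start downstream of the partner's start and run across it, opposite in direction to the partner. Of the loci over both ends, Gm20300-as was highest (41 and 27 reads), followed by Trim65-as (18 and 5), Gm15801-as (13 and 9), Gm47585-as (10 and 11) and Gm8783-as (10 and 10).

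Gm26917-as and CT010467.1-as lay side by side at a ribosomal RNA repeat on chromosome 17. Gm26917-as (chr17:39843013-39846245, -) had 215 reads in replicate 1 and 801 in replicate 2, and faced a lincRNA gene with 100 and 137 reads. CT010467.1-as (chr17:39846353-39846958, +) had 258 and 161 reads and faced a gene of biotype rRNA with 0 and 1 reads. The latter also overlapped an annotated gene of its own strand, and RefSeq places an 18S ribosomal RNA pseudogene, Rn18s-rs5, there. Ribosomal RNA genes exist in many near-identical copies, so the reads of both loci are uncertain.

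The promoters of 2 partners are shown because the antisense lead model covers all of their 300 bases in both libraries. Each runs from 250 bases before to 50 bases after the annotated start on the partner's strand (RefSeq, GRCm38.p6), and capitals mark GGGCGG, the GC box. Slc25a3 encodes the mitochondrial phosphate carrier and Fosl2 a transcription factor of the AP-1 family.
Slc25a3, chr10:91123918-91124217 (-): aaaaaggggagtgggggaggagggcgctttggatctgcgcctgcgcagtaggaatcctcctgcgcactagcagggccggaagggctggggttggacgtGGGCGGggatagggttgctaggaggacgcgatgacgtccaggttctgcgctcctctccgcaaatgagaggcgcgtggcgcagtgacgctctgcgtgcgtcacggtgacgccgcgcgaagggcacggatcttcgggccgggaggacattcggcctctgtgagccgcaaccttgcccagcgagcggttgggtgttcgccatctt
Fosl2, chr5:32136222-32136521 (+): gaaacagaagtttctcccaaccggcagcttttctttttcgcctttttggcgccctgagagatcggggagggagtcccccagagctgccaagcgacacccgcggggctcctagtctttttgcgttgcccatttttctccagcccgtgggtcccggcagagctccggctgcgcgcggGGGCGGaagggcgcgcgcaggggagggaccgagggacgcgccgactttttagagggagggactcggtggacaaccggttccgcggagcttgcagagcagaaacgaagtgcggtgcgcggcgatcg
Slc25a3-as had 19 and 8 reads and started 664 bases inside Slc25a3 in both libraries, and Slc25a3 had 1072 and 1006 reads. Fosl2-as had 15 and 13 reads and started 1004 bases inside Fosl2, which had 57 and 41 reads. Of 23 loci over the 5′ end or both ends with a partner promoter in the table, 13 covered that promoter wholly in both libraries. Among them were those of Mbd3, Cavin1, Erbin, Ino80, Anp32b and Qrich1.

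Partner promoters covered at the 5′ end, at the 3′ end or in the body were rich in CpG. The median was 9.5 CpG per 100 bases for the 22 promoters of partners covered at the 5′ end, 8.33 for the 36 covered at the 3′ end and 7.67 for the 181 covered in the body. The 1 promoter of a partner covered at both ends, that of Gm20300, had 0.667. Over all 32851 promoters in the table, which include those of noncoding genes, it was 2.33. GGGCGG, searched on both strands, was in 63.6%, 69.4% and 70.2% of the first 3 classes and in 35.7% of all promoters. TATAAA, searched likewise, was in 13.6%, 2.78% and 9.39% and in 13.6% of all, and CCAAT in 50%, 47.2% and 38.7% and in 37.4% of all. The CpG content of the partners of loci in the body was thus also above that of the table. The table was not limited to protein-coding genes or to genes with reads, whereas most partners were protein-coding. Whether these traits are particular to partners among such genes was not tested.

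Most of the loci were unspliced. In 258 of the 317 every model had 1 exon, and 59 (18.6%) had a model of 2 or more exons, against 6.58% of the loci below the threshold. The spliced ones comprised 41 with at most 2 exons, 12 with 3, 3 with 4 and 1 each with 5, 7 and 8. A locus with more reads can show a spliced model more easily, so the 18.6% and 6.58% are not like for like. Spliced models carried 583 of 8692 reads (6.71%) in replicate 1 and 396 of 5978 (6.62%) in replicate 2, and most reads were spliced at 21 loci. Of all antisense reads on chromosomes, 94.3% in replicate 1 and 94.1% in replicate 2 were on models of 1 exon, so the difference by reads was small. In 10 loci the lead model of at least 1 library is deposited with a length of 1 base, so that its ends carry no information on extent.

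Of the introns of these loci, many repeated an annotated intron of the gene on the other strand, base for base. The loci held 138 introns, of which 70 were read in both libraries. Of the 70, 36 (51.4%, in 21 loci) had both ends equal to those of an annotated intron of the opposite strand, 34 (in 16 loci) did not, and 0 of all 138 equalled an annotated intron of their own strand. By reads the share was larger, at 443 of 583 spliced reads (76.0%) in replicate 1 and 281 of 396 (71.0%) in replicate 2. Over all 138 introns, most of them with few reads, 47 (34.1%) did so. Widening the tolerance to 10 bases left the share at 51.4%.

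Crebbp-as held a chain of 5 such introns. It had 41 reads in replicate 1 and 37 in replicate 2, and 33 in each carried introns of Crebbp in mirror, while Crebbp itself (ENSMUSG00000022521.10), which encodes the histone acetyltransferase CBP, had 3 reads in each library. The repeated introns ran from chr16:4128687-4137365, read 21 and 23 times, through chr16:4137480-4138744, chr16:4138986-4154856 and chr16:4155034-4179423 to chr16:4180134-4213138, read 33 times in each library. Both libraries agreed in all 5 introns and in both ends of the lead model. The locus covers the 5′ end of Crebbp and 93.2% and 92.5% of the reads at this pair were antisense.

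The same form was seen at further loci. Mc2r-as had 155 and 72 reads, of which 143 and 62 held a mirrored intron, opposite the ACTH receptor gene with 72 and 45 reads. Ubl3-as had 40 and 16 reads, with 39 and 16 on mirrored introns, opposite a ubiquitin-like protein gene with 220 and 171. Nr2f2-as had 76 and 47 reads, with 42 and 31 mirrored, opposite the nuclear receptor COUP-TFII gene with 47 and 37. Mbnl1-as2, opposite a splicing regulator gene, had 51 and 26 reads with 43 and 17 mirrored. Thus in replicate 1 the antisense reads outnumbered the annotated gene's reads at Mc2r and Nr2f2 but not at Ubl3 or Mbnl1.

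Loci with most of their reads on mirrored introns numbered 15, and 6 loci had most of their reads spliced with none mirrored. The latter were Gm7247-as (15 and 11 reads), 9030025P20Rik-as (22 and 11), Srrm2-as (5 and 5), Slc38a11-as (18 and 12), Cep85-as (18 and 14) and Anp32a-as (15 and 5), which together had 93 and 58 reads. The first 15 loci had 537 and 334. The lead models of the 15 ended at the same base in both libraries at 14 loci, against 181 of all 317. No genome sequence was used, so the splice-site letters of these introns were not read, and whether the assignment of strand has a part in them was not tested. Spike-in RNAs had 5731 sense and 39 antisense reads in replicate 1 and 5156 and 40 in replicate 2, and all of the antisense reads fell on 3 spike-ins that had no sense read. The strand of spliced reads was not tested with these spike-in counts.

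The 3′ ends of the loci were more alike between the libraries than the 5′ ends. The lead models of both libraries ended at the same base at 181 of 317 loci (57.1%) and started at the same base at 91 (28.7%). Within 50 bases, 238 3′ ends (75.1%) and 127 5′ ends (40.1%) matched. Leaving aside ends that equal an annotated exon boundary, 145 of 197 3′ ends (73.6%) and 61 of 151 5′ ends (40.4%) matched within 50 bases. The median gap was 0 bases at the 3′ end and 292 bases at the 5′ end.

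**Figure D2:**
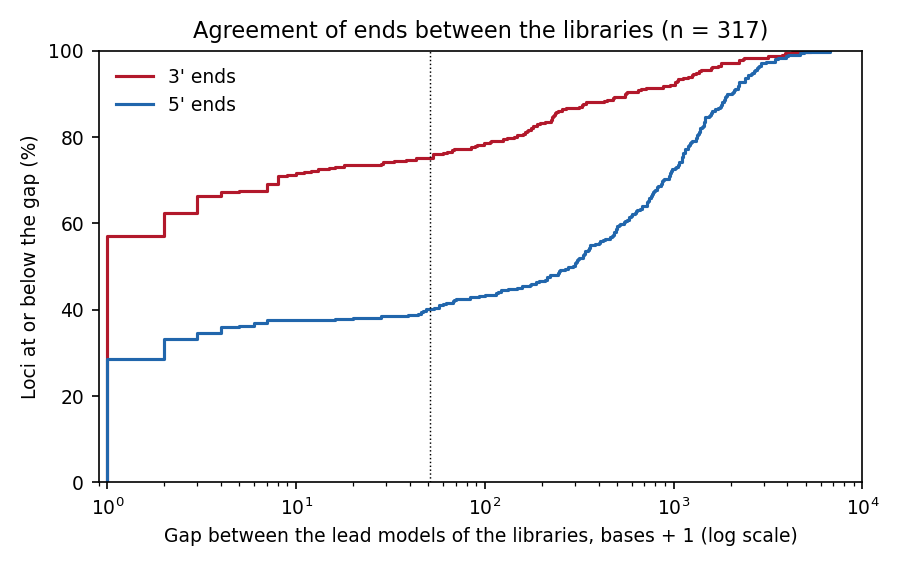
Cumulative share of the 317 loci (y axis, percent) whose lead models in the 2 libraries lie within a given gap (x axis, bases + 1, log scale), for 3′ ends (red) and 5′ ends (blue). The dotted line marks 50 bases, where the red line stands at 75.1% and the blue line at 40.1%.

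Some ends of the loci fell on annotated boundaries. The lead model of replicate 1 started at an annotated exon boundary of either strand at 123 loci and ended at one at 109. At 50 of 316 loci (15.8%) it started exactly at the annotated end of a transcript of the partner, as for Actb-as, Tacc1-as and Ywhaz-as1, and at 39 it ended exactly at the annotated start of one. A same-strand annotated gene ended within 5000 bases upstream of 46 loci, at a median distance of 2291 bases.

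Beyond the 3′ end, genomic A was frequent. The bases after the end could be read where they fell in an annotated exon, for 173 of the 317 loci in replicate 1 and 170 in replicate 2. At least 12 of the 20 bases were A, here called A-rich, in 92 of 173 windows (53.2%) and in 96 of 170 (56.5%), and 80 of 167 loci read in both were A-rich in both. Over 1627030 windows tiled along the strand opposite annotated transcripts the share was 1.32%. The tiles span whole transcripts, whereas 129 of the 173 loci lay mainly over a 3′ UTR, so these shares are not like for like. All 20 bases were A in 29 and 31 windows. The loci below the threshold had nearly the same share, 1043 of 1922 (54.3%).

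**Figure D3:**
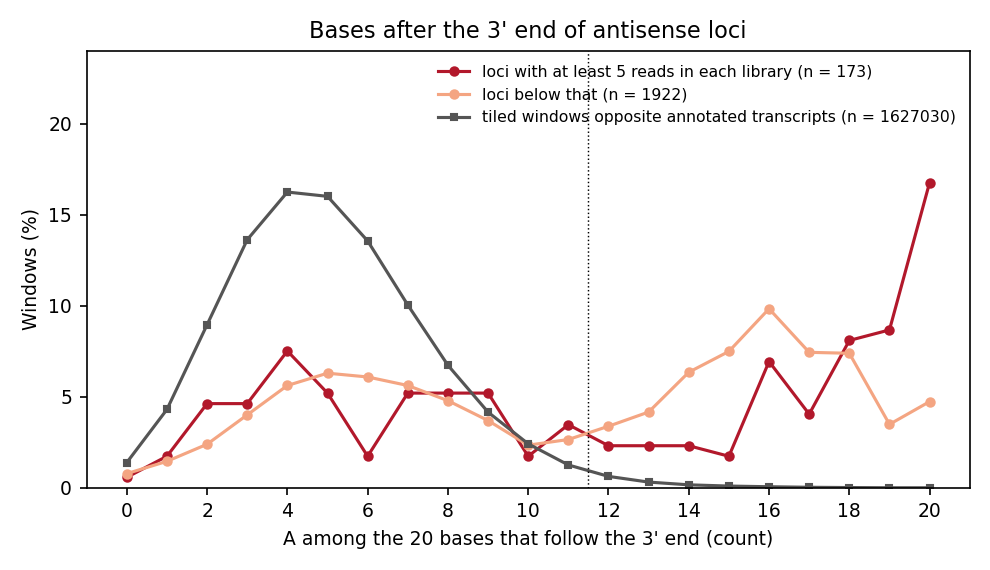
Count of A among the 20 bases after the 3′ end (x axis) against the share of windows (y axis, percent) for 173 antisense loci with at least 5 reads in each library (red), 1922 loci below that (orange) and tiled windows opposite annotated transcripts (grey). The dotted line marks the bound of 12 A, to the right of which lie 53.2% of the red, 54.3% of the orange and 1.32% of the grey windows.

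Ends that did not equal an annotated boundary were A-rich more often, in 80 of 116 windows (69.0%) in replicate 1 and 85 of 113 (75.2%) in replicate 2, against 12 of 57 (21.1%) and 11 of 57 (19.3%) at annotated boundaries. A run of at least 6 A stood in 51.4% and 55.3% of windows and in 0.993% of the tiles. AATAAA or ATTAAA, the poly(A) signal, searched on the strand of the locus in the last 50 bases, was in 16 of 173 (9.25%) and 15 of 170 (8.82%), in 12.3% of the loci below and in 4.01% of the tiles. For the signal and the runs, too, tiles of whole transcripts are not like for like with these windows. Opposite a 3′ UTR, 69 of 129 windows were A-rich, and over introns 10 of 17. Whether priming of cDNA at such runs has a part in these reads was not tested.

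A-rich and other loci had similar levels. The 92 A-rich loci had a median of 18.2 CPM and the 81 others 19.0 CPM, and their median antisense shares were 47.3% and 36.7%. Examples of both kinds are among the most abundant, with Actb-as and Tacc1-as on the one side and Kcnk3-as and Gnb1-as on the other.

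The loci and their partners differed widely in level. The median locus stood at 15.5 CPM (range 6.84 to 740), and the 10 most abundant held 27.9% of the reads of the 317 in replicate 1 and 33.3% in replicate 2. The median partner stood at 35.2 CPM. Across 316 pairs, which share both libraries, Spearman's rho between locus and partner was 0.05. This is a description only, since the reads of the loci chose them and the threshold cuts their levels from below.

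**Figure D4:**
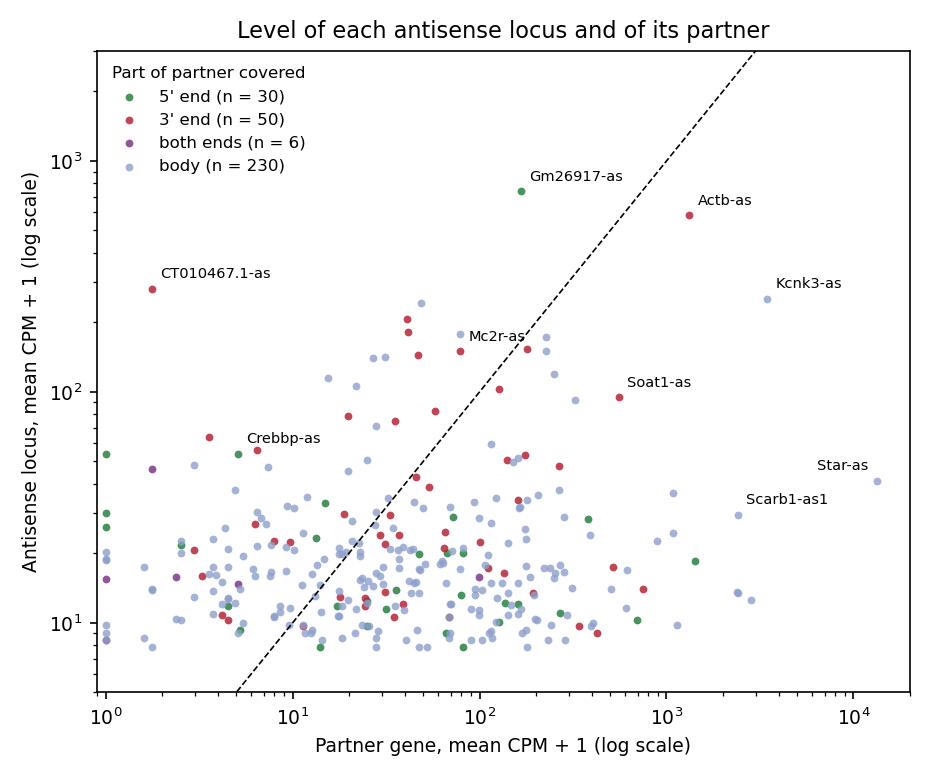
Mean CPM + 1 of each antisense locus (y axis) against that of its partner (x axis), both on log scales, for 316 pairs coloured by the part of the partner covered. The dashed line marks equal levels. Gm26917-as, Crebbp-as, Mc2r-as and CT010467.1-as lie above it and Kcnk3-as, Soat1-as, Star-as and Scarb1-as1 below it.

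The antisense share had a median of 34.5% (37.6% in replicate 1 and 30.4% in replicate 2) and ran from 0.301% for Star-as to 100%. Antisense reads outnumbered those of the partner in both libraries at 97 of 316 loci (30.7%) and were fewer in both at 178 (56.3%). At 11 loci the partner had no read. By position, the median share was 41.9% at the 3′ end, 33.9% in the body and 27.8% at the 5′ end. Counting only partner reads on annotated models raised the overall median to 48.4%.

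Highly expressed genes held such a locus more often. Of annotated genes with reads, 7 of 2242 under 1 CPM (0.312%), 59 of 5385 from 1 to 10 CPM (1.10%), 140 of 6757 from 10 to 100 CPM (2.07%), 79 of 1986 from 100 to 1000 CPM (3.98%) and 9 of 87 above 1000 CPM (10.3%) held a member. The share rose from bin to bin.

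Several genes of steroid synthesis held a locus. Of 24 genes for steroidogenesis and cholesterol delivery, 7 held a locus, namely Star, Fdx1, Nr5a1, Mc2r, Mrap, Scarb1 and Soat1, and 15 held an antisense locus of any read count. Of 22 chromaffin genes, 0 held one of the 317 and 6 held an antisense locus of any count. Over all 16457 annotated genes with reads, 294 (1.79%) held one of the 317 and 6158 (37.4%) an antisense locus of any count, and the first share was 10.3% above 1000 CPM, as given above. The lists were chosen with results of these data known, and no test of the difference was made. The 9 loci on the steroid list had 374 and 235 reads, of which Mc2r-as held 155 and 72 and Soat1-as 106 and 39.

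Their antisense shares were low except at Mc2r. Star-as (30 and 29 reads) lay mainly over introns of Star, which carries cholesterol into mitochondria, and held 0.302% and 0.300% of the reads beside 9898 and 9637 Star reads. Fdx1, the electron donor of mitochondrial steroid hydroxylases, faced Fdx1-as1 (31 and 22 reads, 3.25% and 3.13%) and Fdx1-as2 (15 and 19 reads, 1.60% and 2.71%). The HDL receptor gene Scarb1 faced Scarb1-as1 (13 and 27 reads, 0.838% and 1.38%) and Scarb1-as2 (8 and 10 reads, 0.517% in each library).

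Soat1-as (chr1:156424525-156432321, +) had 106 and 39 reads, and its extent covers the 3′ end of Soat1, the cholesterol-esterifying enzyme. Its antisense share was 18.1% (15.2 to 21.4) and 10.1% (7.5 to 13.5). The lead models of the libraries were adjoining pieces that started 4007 bases apart, with 56 reads in replicate 1 and 25 in replicate 2. That of replicate 1 lay inside the gene, so these shares rest partly on different pieces. Mrap-as (9 and 12 reads, 4.59% and 6.32%) lay in an intron of the ACTH receptor's accessory protein gene, and Nr5a1-as (7 and 5 reads, 2.48% and 1.45%) at the 3′ end of the gene for the steroidogenic regulator SF-1. At Mc2r the share was 68.3% (62.0 to 74.0) and 61.5% (52.5 to 69.9), and its intervals overlap. Star, Scarb1 and Fdx1 thus had many sense and few antisense reads, whereas at Mc2r the reads called antisense were the more numerous in both libraries. Of these Mc2r-as reads, 140 in replicate 1 and 61 in replicate 2 held 1 intron that equals an annotated Mc2r intron. Another such Mc2r intron was held by 135 and 60 reads. Whether the assignment of strand has a part in this share was not tested.

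A larger share of these loci than of annotated genes was at least 2-fold apart between the libraries. On TMM-scaled CPM with 1 CPM added, 65 of the 317 loci (20.5%) were at least 2-fold apart, where 6.32% of the 9360 annotated genes that had 5 or more reads in both libraries were. Of the 65, 47 were higher in replicate 1 (14.8%, beside 3.6% of annotated genes) and 18 in replicate 2 (5.68%, beside 2.72%). The counting interval, computed without the added 1 CPM, excluded no change at 54 of the 65 loci. These were picked by the same ratio, so this count is a description and no test. The median log2 ratio of replicate 2 over replicate 1 was -0.23 for the loci and 0.03 for the annotated genes. Scaling by the library total in place of TMM moves every ratio by 0.10 before 1 CPM is added, and by less after. By that scaling 42 loci were past 2-fold higher in replicate 1 and 21 in replicate 2. Among the 43 loci with 20 or more reads in both libraries, 12 (27.9%) were past 2-fold, 10 of them higher in replicate 1. The share of annotated genes at that minimum was not counted. The annotated genes were not matched to the loci in level, and low counts spread ratios, so the shares are not like for like. The partners with at least 5 reads in each library (244) had a median of 0.16, and 20 of them (8.20%) were past 2-fold.

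The direction of the ratio moved with the length and the place of the locus. Its median was -0.66 for 135 loci with a lead model under 1000 bases, -0.15 for 70 of 1000 to 2000 bases and 0.00 for 112 of 2000 bases or more. It was -0.66 for the 139 loci over 3′ UTRs and 0.17 for the 115 over introns. Of the loci past 2-fold over 3′ UTRs, 35 were higher in replicate 1 and 2 in replicate 2, and over introns 4 and 11 were. The median was -0.59 for the A-rich loci and -0.58 for the others with a window. Whether a difference in read length between the libraries has a part in this was not tested.

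**Figure D5:**
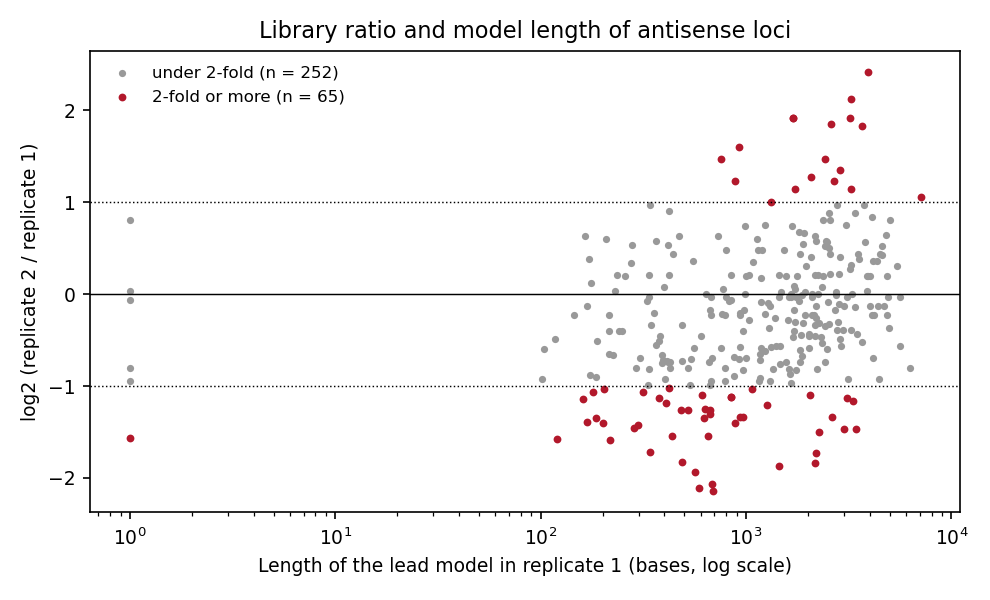
Log2 ratio of replicate 2 over replicate 1 (y axis) against the length of the lead model in replicate 1 (x axis, bases, log scale) for 317 loci, with the 65 at least 2-fold apart in red and dotted lines at 2-fold. Red points below the lower line number 47 and those above the upper line 18. The 6 points at the far left are lead models deposited with 1 base.

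The 5 loci with the largest ratio in each direction are named here. They were picked by the ratio and are among the loci just counted, so they add no support. Plin1-as, opposite the 3′ UTR of the lipid droplet gene Plin1, had 122 reads in replicate 1 and 23 in replicate 2 (log2 ratio -2.15, 95% counting interval -2.89 to -1.53). Thrb-as (28 and 5 reads), Qk-as1 (27 and 5), Szrd1-as (38 and 8) and Map3k1-as (32 and 7) were likewise higher in replicate 1, and all lay over 3′ UTRs. Higher in replicate 2 were Neat1-as, opposite the paraspeckle RNA Neat1 (7 and 35 reads, log2 ratio 2.42, interval 1.36 to 3.96), Gm26917-as (215 and 801 reads, 2.12, 1.91 to 2.35), Gdap10-as (9 and 31), Mbd3-as1 (5 and 18) and Cmip-as (5 and 18). None of the latter 5 lay mainly over a 3′ UTR, but the partners of Neat1-as, Gm26917-as and Gdap10-as are noncoding and have none.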

How the data were processed

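Long reads of 2 adrenal gland libraries, assigned to 1 group with replicate numbers from the labels, were analysed from deposited tables. The authors deposited whole-number read counts per transcript model, with no normalization, and the exon coordinates of each model (source TALON, build mm10 with GENCODE M21, per the file headers and labels). The aligner, the platform and how strand was set: not given in the sources used here. The libraries were processed separately. Loci were joined by at least 1 base of same-strand overlap. Gene extents were taken from GENCODE M21, since 16082 of 55536 annotated genes have other extents in the deposited gene lines. Spike-in reads were left out of totals. Position was set by which annotated ends of the partner the locus extent covers.

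Shares carry Wilson 95% intervals, and ratios exact binomial intervals on TMM-scaled counts (edgeR 4.0.16, R 4.3.3). Both are for counting error only, since no molecular identifiers are in the files. The intervals of ratios leave out the 1 CPM that is added to the ratios themselves. With 1 group, edgeR's test could not be fitted and no p is given. Merging and ratios were tested on simulated data. Sequence windows come from GENCODE M21 transcripts, so only ends inside annotated exons were read, and promoters come from RefSeq (GRCm38.p6). Python 3.11.15, numpy 2.4.6, pandas 2.3.3, scipy 1.17.1 and matplotlib 3.10.9 were used. Named loci are the 10 highest, the 5 highest per position class, spliced class and antisense share (partners with 20 or more reads in both libraries), the 5 largest ratios each way, those opposite listed genes and those next to the threshold. Loci, lists and this rule were chosen with earlier results of these data known. Other named loci (5′ end examples, spliced loci without mirrored introns and loci overlapping same-strand genes) were chosen after their values were seen. Alternatives covered the read minimum, merging, partner choice, position rule, scaling and sequence windows. Some items that the rule names are left out here.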

Additional observations from a re-analysis of the deposited data

Results flagged for a closer look

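Antisense reads also fell on spike-in RNAs, which the comparisons above do not use. ERCC-00009 had 27 antisense reads in each library, and ERCC-00116 had 11 in replicate 1 and 13 in replicate 2. Both had 0 sense reads in each library, and their antisense models span nearly the whole RNA. They were singled out because the signal exceeds the 3 reads that a count of 0 allows. A further spike-in, ERCC-00059, had 1 antisense read, in replicate 1, and 0 sense reads. No spike-in had reads of both strands.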

How the results depend on the processing

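The number of loci followed the read minimum, at 604 with 3 reads, 123 with 10 and 43 with 20, against 317 with 5. With 5 reads asked of 1 library only and loci joined within it, it ran from 468 to 580. Where loci were joined across both, it was 474 and 585. With 10 reads, 64.2% lay in the body of the partner, 24.4% covered its 3′ end and 23.6% had a spliced model. Within 1000 bases of any annotated transcript start, 17.0% counted as 5′ end and 65.0% as body. By the lead model of replicate 1, a choice made after seeing the data, 79.5% lay in the body and 10.1% at the 3′ end. In the single libraries the body held 75.3% to 78.6%, the 3′ end 10.7% to 12.6% and spliced loci were 11.9% to 15.8%. Counting only loci with mostly spliced reads left 6.62%. Mirrored introns were 34.1% of introns read in either library and 74.2% of those with at least 10 reads in sum (both added after seeing the data). Partner reads on annotated models alone gave a median antisense share of 48.4%. Of the loci with 20 reads, 12 of 43 were past 2-fold. The poly(A) signal was in 16.4% of ends over the last 100 bases, and 69.0% of ends off annotated boundaries were A-rich, the latter added after seeing the data. Of 47 alternative values, 26 stayed within the counting interval or spread of the main value, or within 1.5 times for counts, among them merging by exons or by shared extent, partner choice, other scalings and a run of 6 A. Apart from fewer loci or reads entering, the cause of these shifts was not tested. No paired analysis was possible because the study has 1 group. Depth limits the calls to loci above about 6.07 CPM in replicate 1 and 7.61 CPM in replicate 2.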
